A study of Mus musculus with 6 samples.

Results

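Genes of thymic exit and retention were followed in NKT1 cells, the T-bet-expressing subset of invariant natural killer T (iNKT) cells. They were taken by symbol from the 47643 genes of the deposited table. The 7 genes were the sphingosine 1-phosphate (S1P) receptors S1pr1, S1pr4 and S1pr5, the transcription factors Klf2 and Klf3, the retention molecule Cd69 and the oxysterol receptor Gpr183. All 7 were measured, and all 7 were among the 12760 genes with enough counts to be tested. The series holds 6 RNA sequencing libraries of iNKT cells, sorted from thymus of BALB/c mice of wild-type genotype, 3 from CD4-positive and 3 from CD4-negative NKT1 cells. No agent, transgene or further allele is named for either group. The age of the mice, and whether each library came from separate animals, are not given in the labels, so the p-values measure only the spread between these libraries, which may be technical.

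S1P is a lipid that is abundant in blood and lymph and scarce inside tissue. Cells that carry S1PR1 leave the thymus along that gradient; KLF2 activates S1pr1, and CD69, which is induced by activation, binds S1PR1 and takes it off the cell surface. S1PR5 is best known for the exit of NK cells from bone marrow and lymph nodes, and many iNKT cells, NKT1 cells above all, stay in the thymus as long-lived residents.

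Totals of estimated counts ranged from 40480463 to 53145848 per library, so that 1 count was worth 0.0185 to 0.0261 CPM (counts per 1000000, scaled by the TMM method). CD4-negative replicate 3 stood apart on the first principal component (score -90.2, against -2.31 to 32.2 in the others) and had the fewest detected genes (13787, against 15293 to 16267). Mitochondrial genes held 1.33% of its counts and 1.35% in CD4-positive replicate 1, against 3.51% to 5.19% in the remaining libraries. S1pr1, Klf3 and Gpr183 had their lowest value of each sort in these low libraries, and the other members did not. Whether this set their levels was not tested. Cd4, the sort marker, ranged from 401 to 508 CPM in the CD4-positive libraries and from 10.9 to 41.2 CPM in the others. The 10 iNKT and NKT1 markers, among them Zbtb16 (PLZF) and Tbx21 (T-bet), all had counts, and their sum ranged from 5351 to 6119 CPM against 5195 to 5646 CPM, CD4-positive values first. In bulk RNA, fewer cells that express a gene and less RNA per cell cannot be told apart.

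S1pr5 was the only member that passed the test over all genes, and it was lower in CD4-positive cells. It kept its direction but missed the threshold with the replicate number as a block or a term for the library naming scheme. The same held when any library other than CD4-negative replicate 3 was left out, and no gene at all passed then. Klf2 and S1pr1 stood lower in every CD4-positive library than in any CD4-negative library, without passing the test over all genes. S1pr4, Klf3, Cd69 and Gpr183 overlapped between the groups. By edgeR's quasi-likelihood test with Benjamini-Hochberg adjustment over all 12760 genes, 1 of the 7 genes passed at 0.05, where 0.212% of all tested genes passed in either direction and 0.141% passed as lower. Groups did not overlap, with CD4-positive lower, for 3 of the 7 genes, against 4.57% of all tested genes. The log2 difference (CD4-positive minus CD4-negative) was below 0 for all 7 genes, with a median of -0.36, whereas 51.1% of all tested genes lay below 0 and their median was -0.0058. The 7 genes were chosen with earlier results of these data known. Without CD4-negative replicate 1 only 5 of the 7 were below 0, and without CD4-positive replicate 1, 6 were.

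**Figure D1:**
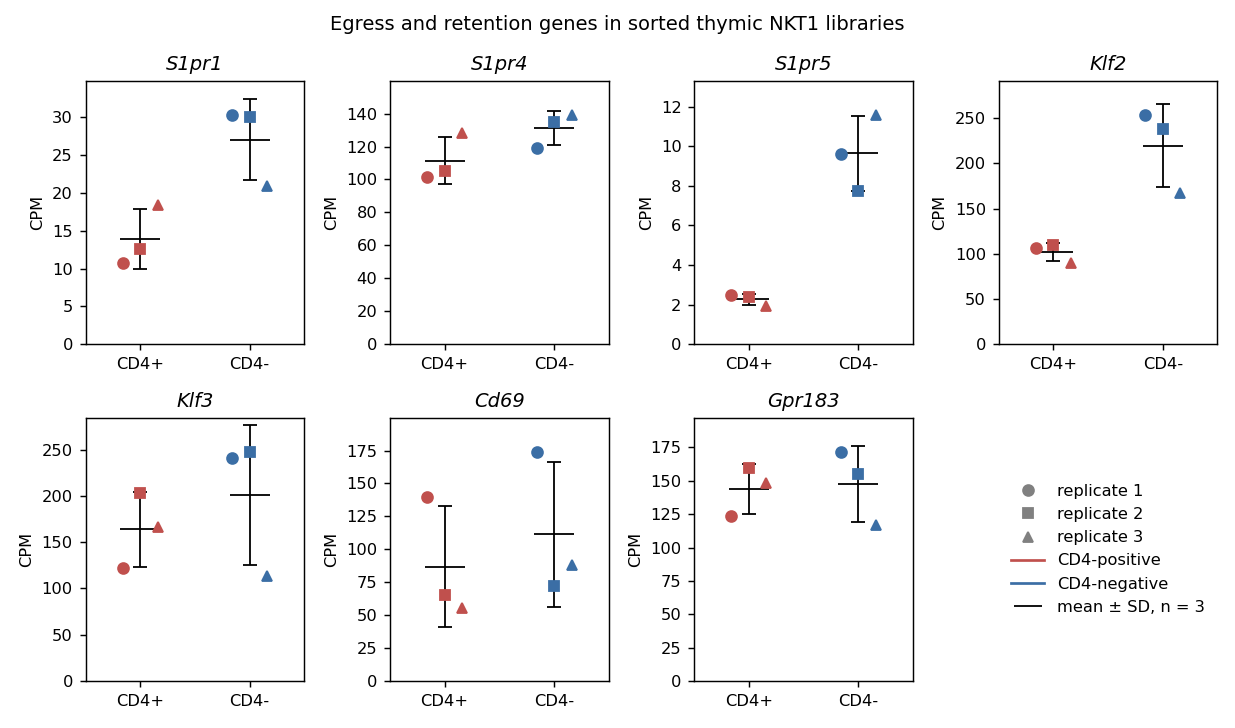
Level of each of the 7 genes in CPM (y axis, from 0) in each library, by CD4 sort (x axis), with 1 symbol per replicate number and the mean ± SD of n = 3 in black. The CD4-positive points of S1pr1, S1pr5 and Klf2 all lie below the CD4-negative points, and those of the other 4 genes overlap.

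The S1P receptors are G protein-coupled receptors of the same ligand. S1pr5 lies on the minus strand of chromosome 9 from 21242912 to 21248443, S1pr1 on the minus strand of chromosome 3 from 115710433 to 115715072 and S1pr4 on the minus strand of chromosome 10 from 81497747 to 81500132 (GENCODE M21, GRCm38). Klf2 lies on the plus strand of chromosome 8 from 72319033 to 72321656. The promoters of S1pr5, which passed the test, of S1pr4, which overlapped between the sorts, and of Klf2 are shown side by side. They were searched for CACCC boxes, which the transcription factor KLF2 binds. Each window runs from 250 bases before to 50 bases after the RefSeq start (GRCm38.p6) and is printed 5′ to 3′ on the strand of the gene. Capitals mark CACCC on either strand and, in Klf2, a match to the MEF2 motif. The windows are chr9:21248394-21248693 (minus strand) for S1pr5, chr10:81500088-81500387 (minus strand) for S1pr4 and chr8:72318812-72319111 (plus strand) for Klf2.
S1pr5: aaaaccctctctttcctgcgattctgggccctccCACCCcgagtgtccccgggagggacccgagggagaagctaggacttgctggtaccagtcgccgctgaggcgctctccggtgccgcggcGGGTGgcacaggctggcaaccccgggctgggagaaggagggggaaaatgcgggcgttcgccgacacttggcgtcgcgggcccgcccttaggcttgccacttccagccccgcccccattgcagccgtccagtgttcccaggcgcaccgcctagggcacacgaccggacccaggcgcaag
S1pr4: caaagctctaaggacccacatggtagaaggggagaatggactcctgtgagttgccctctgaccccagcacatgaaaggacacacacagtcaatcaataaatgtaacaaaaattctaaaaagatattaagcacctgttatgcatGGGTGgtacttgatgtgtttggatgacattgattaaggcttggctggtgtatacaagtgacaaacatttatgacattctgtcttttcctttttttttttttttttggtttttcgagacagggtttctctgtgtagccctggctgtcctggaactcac
Klf2: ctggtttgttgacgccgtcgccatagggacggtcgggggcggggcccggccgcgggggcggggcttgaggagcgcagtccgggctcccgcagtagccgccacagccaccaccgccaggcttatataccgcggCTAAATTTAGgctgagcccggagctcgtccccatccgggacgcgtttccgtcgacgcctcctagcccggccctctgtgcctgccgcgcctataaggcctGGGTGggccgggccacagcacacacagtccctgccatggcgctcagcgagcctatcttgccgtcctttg
The S1pr5 window held CACCC at bases 35 to 39 and, on the opposite strand, at bases 123 to 127; the S1pr4 and Klf2 windows held 1 match each, at bases 144 to 148 and 232 to 236 on the opposite strand. The motif is common: 57.5% of 32851 promoter windows held it. The Klf2 window also held the MEF2 motif (CTA and TAG around any 4 bases) at bases 133 to 142, as did 3.69% of all windows. TCACAC (T-box core, in 14.5% of windows) and GTAAACA (FOXO, in 3.65%) were found in none of the 3, and CACCTG (an E-box, in 20.2%) only in S1pr4, at bases 130 to 135; both strands were searched for each, and no matches of different motifs overlapped here. Among the other members, the Klf3 window held 5 CACCC matches and the Gpr183 window held 0, and the groups overlapped for both genes. No window was at hand for S1pr1 and Cd69. A match of letters in a window is not a binding site.

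S1pr5 stood at 2.47, 2.39 and 1.93 CPM in CD4-positive replicates 1, 2 and 3 and at 9.60, 7.75 and 11.6 CPM in CD4-negative replicates 1, 2 and 3. The 3 CD4-positive libraries lay close together, and the nearest values of the groups were 5.29 CPM apart. These levels rest on 100 to 124 counts per CD4-positive and 419 to 446 counts per CD4-negative library, all of them whole numbers in the deposited table. The mean was 2.26 ± 0.29 against 9.64 ± 1.90 CPM (SD, n = 3 per group), a 4.25-fold difference (log2 -2.09, SE 0.24, edgeR adjusted p = 0.0308). S1pr5 ranked 16 of 12760 by p and 57 by size of decrease. The adjusted p rose to between 0.0806 (without CD4-negative replicate 2) and 0.221 (without CD4-positive replicate 2) when any library other than CD4-negative replicate 3 was left out, and it was 0.0314 without that library. Where a library other than CD4-negative replicate 3 was left out, no gene passed (edgeR, smallest adjusted p 0.0538 to 0.147). The adjusted p of S1pr5 was 0.183 with the replicate number as a block, where no gene passed either. It was 0.0582 with the library naming scheme, which sets replicate 3 of each group apart, as a term, where 11 genes passed. The replicate 1 and 2 libraries alone, which share a scheme, gave a log2 difference of -1.83 (edgeR adjusted p = 0.153). Over all genes 9 passed there, and the other scheme holds 1 library per group.

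S1pr1, the receptor through which T cells leave the thymus, stood at 10.8, 12.6 and 18.4 CPM in CD4-positive replicates 1 to 3 and at 30.2, 30.0 and 20.9 CPM in CD4-negative replicates 1 to 3. The groups did not overlap, but the nearest libraries, replicate 3 of each group, were 2.48 CPM apart. The mean was 13.9 ± 3.96 against 27.0 ± 5.36 CPM, a log2 difference of -0.96 (SE 0.26) that did not pass (edgeR adjusted p = 0.449, unadjusted p = 0.00651). S1pr4, a receptor of lymphocytes and other blood cells, stood at 102, 105 and 128 CPM against 119, 135 and 139 CPM. CD4-positive replicate 3 lay above CD4-negative replicate 1, and the log2 difference was -0.23 (SE 0.16, edgeR adjusted p = 1.0).

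Of the receptors that are no members, S1pr2, which signals through other G proteins and restrains migration, overlapped between the sorts at 18.1 to 23.4 against 17.3 to 19.2 CPM, with a log2 difference of 0.14 (SE 0.17). S1pr3 had no count in 5 libraries, where 3 counts would be 0.0555 to 0.0645 CPM, and stood at 0.183 CPM in CD4-negative replicate 3; it was not tested. Scaled to transcript length, S1pr4 made up most of the summed receptor level in each library: 83.7% to 85.3% in CD4-positive and 75.2% to 80.1% in CD4-negative libraries. S1pr1 held 7.09% to 9.41% against 9.42% to 14.9%, with the nearest libraries alike. S1pr5 held 1.20% to 1.98% against 4.29% to 6.36%. S1pr2 held 5.54% to 5.71% against 3.83% to 4.12%. These shares of a total move together by construction, and no test was made on them.

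**Figure D2:**
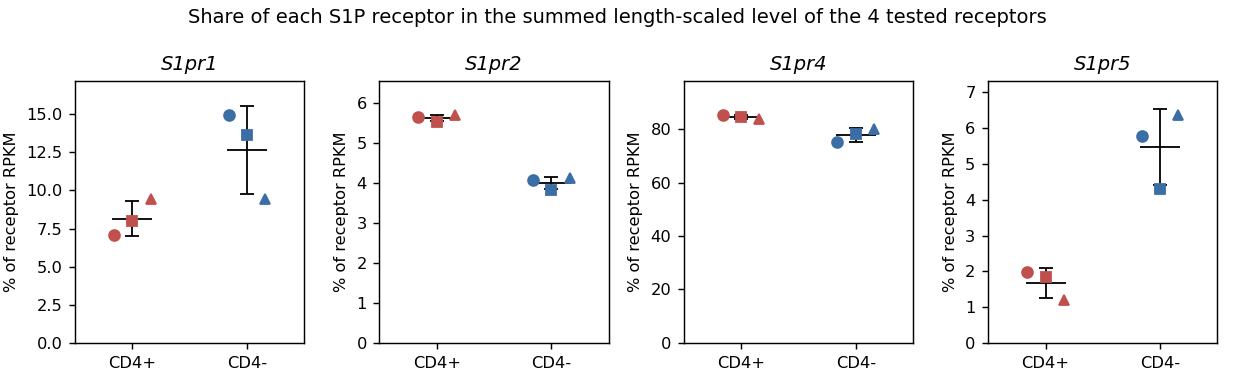
Share (percent, y axis from 0, scales differ) of each of the 4 tested S1P receptors in their summed length-scaled level (RPKM) in each library, by CD4 sort, with mean ± SD of n = 3 in black and the symbols of the plot of levels. S1pr4 holds 75.2% to 85.3% in every library, and S1pr5 holds 1.20% to 1.98% in CD4-positive and 4.29% to 6.36% in CD4-negative libraries.

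Klf2, the factor that maintains S1pr1 in resting T cells, stood at 106, 109 and 90.2 CPM in CD4-positive replicates 1 to 3 and at 253, 238 and 167 CPM in CD4-negative replicates 1 to 3. The CD4-positive libraries lay close together, and the CD4-negative library nearest to them was replicate 3, the library that stood apart. The mean was 102 ± 10.3 against 220 ± 45.9 CPM, a log2 difference of -1.11 (SE 0.20, edgeR adjusted p = 0.117), and Klf2 ranked 79 of 12760 by p. Without CD4-negative replicate 3 it passed (log2 -1.27, edgeR adjusted p = 0.0314; 0.335% of the genes tested there passed), and so it did by DESeq2 with all 6 libraries (adjusted p = 9.13e-05), which passed 1.48% of genes. On counts simulated with 3 libraries per group DESeq2 made a larger share of false calls than edgeR and more than its threshold allows. That simulation gave every gene the same dispersion and held no outlying library and no replicate effect.

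Klf3, a repressor of the same family that binds the same kind of site, had 123, 204 and 166 CPM in the CD4-positive replicates and 242, 248 and 114 CPM in the CD4-negative replicates. Its lowest value was in CD4-negative replicate 3, and the groups overlapped (log2 -0.29, SE 0.33, edgeR adjusted p = 1.0). Its deposited counts were fractional in 100% of libraries, so part of its reads was shared with other features. Of the 14 other Klf genes listed, 10 were tested and none passed, with 4 above 0 and 6 below and a median of -0.07. The most abundant of these in counts were Klf13 (log2 -0.06) and Klf6 (-0.29), a factor induced early after stimulation. Klf16 and Klf10 differed by -0.09 and 0.10 and Klf7 by 0.18. The low genes Klf4, Klf9, Klf11, Klf12 and Klf8 (-0.71, -0.55, -0.55, 0.50 and 0.57) had SEs of 0.45 to 1.41. Of these 10, Klf4, Klf6, Klf8, Klf10, Klf11, Klf13 and Klf16 changed sign in at least 1 of the alternatives.

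Cd69 stood at 139, 65.5 and 55.4 CPM in CD4-positive replicates 1 to 3 and at 174, 72.0 and 87.9 CPM in CD4-negative replicates 1 to 3. It was highest in replicate 1 of each sort, and the groups overlapped (log2 -0.36, SE 0.44, edgeR adjusted p = 1.0). The same libraries were high in 10 immediate early and handling-induced genes such as Fos, Jun, Dusp1 and Hspa1a, whose sum reached 3110 CPM in CD4-positive replicate 1 and 5187 CPM in CD4-negative replicate 1. In the remaining libraries that sum was 597 to 640 CPM (CD4-positive) and 369 to 756 CPM (CD4-negative). Their part in the level of Cd69 was not tested. Klf4 followed the same libraries (9.65 and 18.6 CPM in replicate 1, 0.287 to 1.48 CPM elsewhere), and Klf6 had its highest value of each sort there (221 and 385 CPM). Klf2 varied less between replicates: its CD4-negative replicate 1 was the highest of its sort (253 CPM, next to 238 CPM), and its CD4-positive replicate 1 lay between the other CD4-positive libraries. With the replicate 1 libraries left out, Cd69 differed by -0.40 (SE 0.25), Klf2 by -1.02 (SE 0.28) and S1pr5 by -2.16 (SE 0.37), and no gene passed among the 4 libraries left (edgeR, smallest adjusted p = 0.187; 402 of 12948 genes at an unadjusted p under 0.05).

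**Figure D3:**
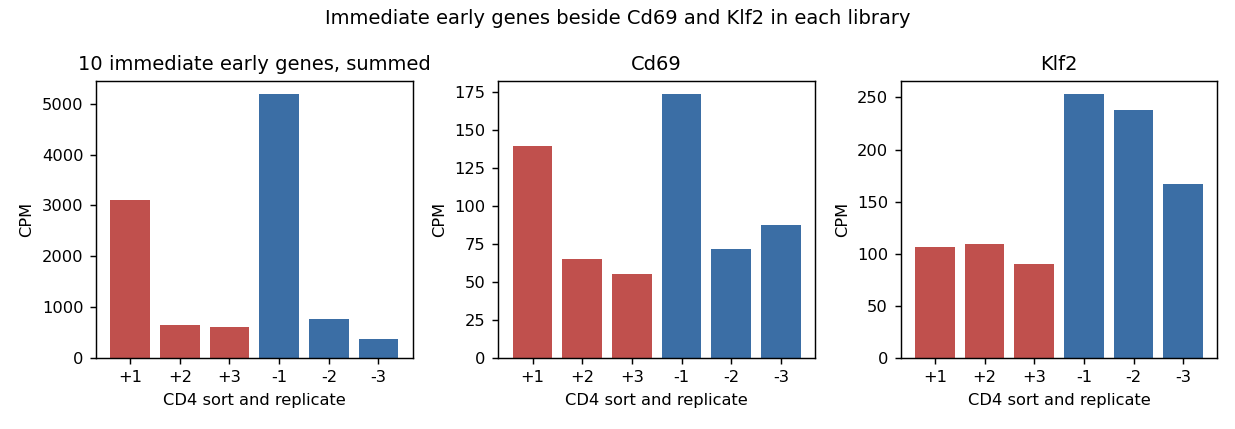
CPM (y axis, from 0) in each library of the summed 10 immediate early genes, of Cd69 and of Klf2, with CD4-positive (+) libraries in red and CD4-negative (-) libraries in blue and the replicate number on the x axis. The replicate 1 bars are the highest of each sort for the early genes and for Cd69; for Klf2 the 3 CD4-negative bars stand above the 3 CD4-positive bars.

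Gpr183, the receptor EBI2 that guides lymphocytes along oxysterol gradients, was the least different member. It had 124, 160 and 148 CPM in the CD4-positive replicates and 172, 155 and 117 CPM in the CD4-negative replicates. Each group held values above and below the other, and the log2 difference was -0.04 (SE 0.19, edgeR adjusted p = 1.0). The 4 listed enzymes that make or break down its ligand were too low to test: Cyp7b1 had no count, Ch25h and Cyp27a1 reached 0.043 and 0.135 CPM at most, and Hsd3b7 had 1.77 CPM in CD4-negative replicate 3 and at most 0.0861 CPM elsewhere.

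Per length of the principal transcript (RPKM), Klf2 was the most abundant member in CD4-positive cells (48.8 to 59.2), followed by Gpr183 (45.3 to 58.7), Cd69 (32.8 to 82.6) and S1pr4 (42.5 to 53.6), which overlapped one another. Klf3 came next at 23.5 to 39.0 RPKM, then S1pr1 at 3.54 to 6.03 and S1pr5 at 0.771 to 0.987 RPKM, the last 2 without overlap. In CD4-negative cells Klf2 stood at 90.5 to 137 RPKM and overlapped only Cd69 (42.7 to 103). Below them came S1pr4 (49.98 to 58.2), Gpr183 (42.8 to 63.0) and Klf3 (21.7 to 47.4), each overlapping the next, then S1pr1 (6.85 to 9.92) and S1pr5 (3.10 to 4.63). The place of Cd69 and Klf3 depends on the length taken: over all annotated exons their means were 13.3 against 17.1 RPKM and 14.6 against 17.9 RPKM, in place of 51.4 against 65.9 and 31.4 against 38.5. By mean over both sorts, Klf2 lay above 93.3% of tested genes and S1pr5 above 31.0%.

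Members were also compared within each library as log2 ratios of counts, which need no scaling between libraries. S1pr5 relative to S1pr1 was lower in CD4-positive cells by a log2 difference of -1.10 (-2.59 ± 0.59 against -1.49 ± 0.57, exact 2-sided permutation p = 0.1, 0.167 adjusted over the 5 ratios). Klf2 relative to Klf3 differed by -0.85 (exact permutation p = 0.1) and S1pr4 relative to S1pr1 by 0.74 (exact permutation p = 0.1). For these 3 ratios the groups did not overlap. Klf2 relative to Cd69 differed by -0.71 (exact permutation p = 0.3) and S1pr1 relative to Cd69 by -0.60 (exact permutation p = 0.5). A design of 3 against 3 libraries cannot give less than 0.1.

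Around these 7 genes, 83 other genes of the pathway were listed, of which 68 were tested and none passed over all genes by edgeR, while 8 had an unadjusted p under 0.05 (4.44% of all tested genes did) and 4 passed by DESeq2 (1.48% of all tested genes did, with the excess of false calls given for Klf2). Of the 68, 30 lay above 0 and 38 below, with a median of -0.03. Groups did not overlap for 3 as higher and 8 as lower in CD4-positive cells, where 4.84% and 4.57% of all tested genes did so.

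Of 9 genes that make, break down or carry S1P, 3 were tested and none passed: Sphk2, the S1P kinase (40.5 to 54.1 against 44.3 to 52.4 CPM), Sgpl1, the S1P lyase (log2 0.16, SE 0.20), and Sgpp1, an S1P phosphatase (log2 0.10, SE 0.14). The kinase Sphk1 and the S1P exporter Spns2 were at most 0.0578 and 0.194 CPM. All 16 genes of receptor coupling, desensitisation and motility were tested, with 9 above 0, 7 below and a median of 0.01. The 2 with the smallest p were Arrb1, a beta-arrestin that desensitises receptors (log2 0.28, SE 0.14, groups not overlapping), and the G protein subunit Gna12 (log2 0.45, SE 0.47).

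Of the 12 regulators known to act on S1P receptor or Klf2 transcription, none passed. Eomes, a T-box factor of NK and memory T cells, had the smallest p: 14.0, 10.2 and 10.8 CPM in CD4-positive replicates 1 to 3 and 47.2, 35.4 and 24.3 CPM in CD4-negative replicates 1 to 3 (log2 -1.61, SE 0.27, edgeR adjusted p = 0.0964). Its groups did not overlap, and without CD4-negative replicate 3 its edgeR adjusted p was 0.0301. Foxo1, an activator of Klf2, ranged over 104 to 113 against 133 to 156 CPM (log2 -0.43, SE 0.14, edgeR adjusted p = 0.754). Tbx21, which encodes T-bet, an activator of S1pr5, overlapped (log2 -0.14, SE 0.29), as did Zfp683, which encodes the residency factor Hobit (log2 0.10, SE 0.15); these 2 are named beyond the rule, after their values were seen.

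Of 8 recirculation receptors 6 lay below 0, with a median of -0.34, and none passed. Cx3cr1, the fractalkine receptor, stood at 8.56 to 13.8 CPM against 20.8 to 46.9 CPM (log2 -1.54, SE 0.34, edgeR adjusted p = 0.253). In the retention list, 5 of 8 genes lay below 0, with a median of -0.19, and none passed. P2rx7, the ATP receptor that marks tissue-resident T cells, went the other way: 2.65, 5.21 and 7.67 CPM in the CD4-positive replicates and 1.31, 0.722 and 0.653 CPM in the CD4-negative replicates (log2 2.53, SE 0.48, edgeR adjusted p = 0.136). Cxcr6, a chemokine receptor of NKT1 cells, stood at 556 to 697 CPM against 772 to 1066 CPM (log2 -0.52, SE 0.19, edgeR adjusted p = 0.884). In the immediate early list 8 of 10 genes lay below 0 (median -0.53) and none passed; Egr1 and Fos, with the smallest p, differed by 0.73 (SE 0.50) and -1.48 (SE 1.40).

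**Figure D4:**
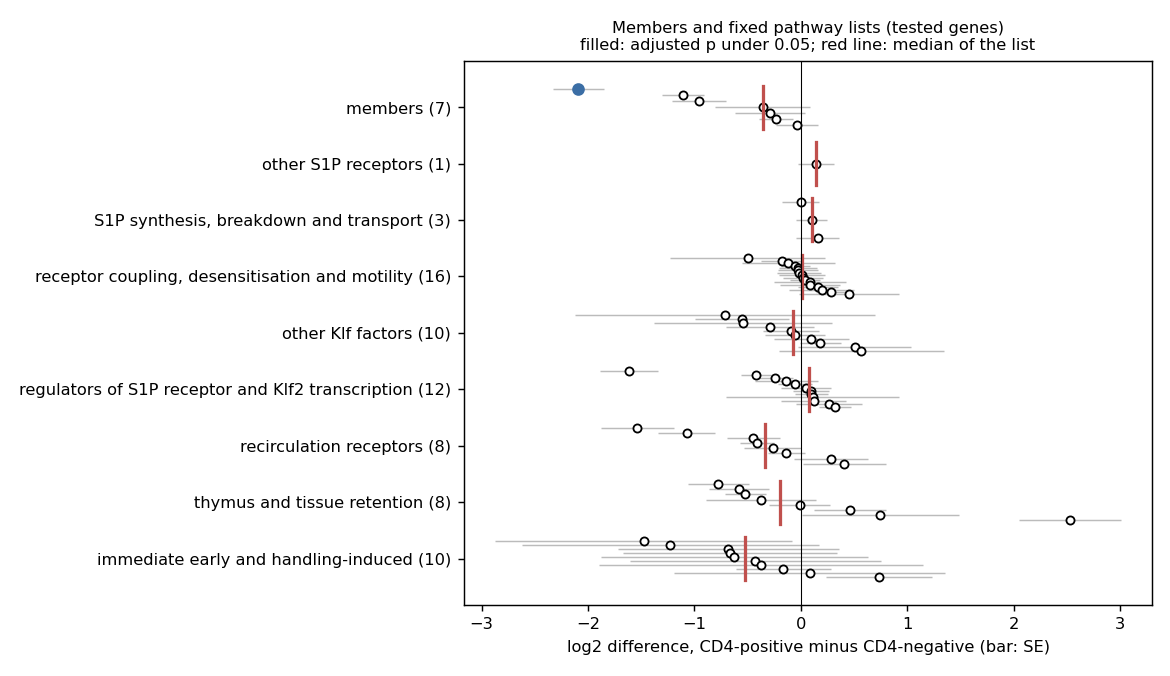
Log2 difference (x axis, CD4-positive minus CD4-negative, with SE bars) of each tested gene of the 7 members and of 8 pathway lists (y axis, number of tested genes in brackets), with the list median as a red line. The only filled point, a gene past the adjusted threshold of 0.05, is S1pr5 at -2.09.

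Transcripts of other cells that express these receptors were counted beside the members; sums are given for CD4-positive against CD4-negative libraries. Of 8 endothelial genes, which mark cells rich in S1pr1 and Klf2, Kdr, Cldn5 and Emcn had no count, and the list summed to 0.463 to 0.752 against 0.259 to 0.653 CPM. The B cell list, 7 of 9 genes with counts, summed to 52.9 to 77.3 against 109 to 118 CPM, nearly all from Ighm, while Pax5, the B lineage factor, had no count; like Klf2 and S1pr1 that sum was lower in the CD4-positive libraries, and its part in those differences was not tested. The naive T cell list, which contains S1pr1, had all 8 genes with counts and overlapping sums (538 to 633 against 439 to 671 CPM). The immature thymocyte list had all 8 genes with counts and overlapped too (28.6 to 148 against 45.4 to 217 CPM), as did the myeloid list, at most 2.02 CPM in any library. The thymic epithelium and fibroblast list summed to 2.70 to 2.89 against 2.95 to 3.85 CPM. NK cell and ILC1 genes, 7 of 8 with counts and Khdc1a at 0, summed to 700 to 770 against 1588 to 2725 CPM. Most of this came from Gzma, Klrk1 and Klrc1, which NKT1 cells express as well. Ncr1, of the same list, stood at 20.8 to 33.5 against 74.7 to 92.8 CPM (log2 -1.56, SE 0.22, edgeR adjusted p = 0.0545). Eomes and Klre1 were also lower in every CD4-positive library, and Klri2 overlapped. The sum of this list was higher in the CD4-negative libraries, as S1pr5 was, and its part in the S1pr5 difference was not tested. The NKT2 and NKT17 list summed to 191 to 297 against 49.0 to 77.4 CPM, mostly from Izumo1r, with all 9 genes holding a count in some library; its part was likewise not tested.

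The genes with the library profile nearest to each member were found by the root mean square difference of centred log2 CPM over the 6 libraries, among 8680 genes of at least 5 CPM. Nearest to S1pr5 were Pltp, a phospholipid transfer protein (distance 0.22), Plek, a protein kinase C substrate (0.23), and Ifitm2, an interferon-induced membrane protein (0.25), which themselves passed the test as lower. Nearest to Klf2 were Atp1b1, a subunit of the sodium pump (0.13), Rap1gap2, a GTPase-activating protein (0.14), and Fam160a2 (0.15). Nearest to S1pr1 were Ly6c2, a surface protein of memory T cells (0.16), Gpr146 (0.16) and the lipid-binding protein Osbpl3 (0.18). Nearest to Cd69 were Dnajb1 (0.14), Hexim1 (0.14) and Dnajb4 (0.15), all of them highest in replicate 1 of each sort (197 and 242 CPM for Dnajb1, against 73.2 to 99.0 CPM elsewhere). Dnajb1 and Dnajb4 encode heat shock co-chaperones. Nearest to S1pr4 were Banf1, Alg1 and Fadd (0.042 to 0.044), to Klf3 Sun1, Parp8 and Sppl3 (0.071 to 0.076), and to Gpr183 Fam122a, Rps6kb1 and Klhl18 (0.021 to 0.036); these distances are small for any gene that varied little. The likeness is over 6 libraries, and it is a description. That such genes share the group difference or the replicate 1 peak of a member follows from how they were picked.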

How the data were processed

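Per the labels' protocols, total RNA (RNeasy Plus Micro) went into stranded TruSeq mRNA libraries, read from both ends on a HiSeq4000. The authors deposited 1 table of estimated counts per gene, not normalised; per the submitters' processing notes the tools were STAR, Picard and RSEM and the build mm10, with no roles or versions. Which annotation was counted, and with which strand setting, is not given in the sources used here. Columns were matched to samples by library name.

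The members and lists were chosen with earlier results of these data known. Estimated counts were rounded and fitted in R 4.3.3 with edgeR 4.0.16 (filterByExpr, 12760 genes kept; TMM; quasi-likelihood F test with robust dispersions and group as sole term, 2-sided; Benjamini-Hochberg adjustment over all tested genes, threshold 0.05). SEs were derived from the F statistic. Profiles used log2 CPM with a prior count of 2, and ratios log2 counts plus 0.5. Lengths and coordinates came from GENCODE M21 (47224 of 47643 identifiers found, versions ignored), with the longest best-ranked APPRIS principal transcript as length; promoters came from RefSeq (GRCm38.p6; 5 of the 7 members matched). No 2 libraries of a group agreed within sampling noise (chi-square per degree of freedom 55.6 to 400, where noise gives about 1). A count of 0 allows up to 3 counts, by counting error only.

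Named were all 7 members, tested S1P receptor and Klf genes, called genes and the 2 smallest p of each other list, and the 3 nearest profiles per member; some genes are not reported here. Other pathway genes given with values were picked after their values were seen. Alternatives tried were DESeq2 1.42.0, upper-quartile and RLE scaling, limma-voom (limma 3.58.1), other filters, a replicate block, a naming-scheme term, a threshold of 0.01 and each library left out; leaving out both replicate 3 or both replicate 1 libraries was added after seeing the data. The fits were tested on simulated data first: edgeR and limma-voom kept false calls near the threshold of 0.05, and DESeq2 exceeded it, so its calls are given only as an alternative.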

Additional observations from a re-analysis of the deposited data

How the results depend on the processing

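Over all tested genes 27 passed; DESeq2, which made too many false calls on simulated counts, gave 189, no filter on low counts 67, the naming-scheme term 11, the threshold of 0.01 2, the replicate block 0, the replicate 1 and 2 libraries alone 9 and the replicate 2 and 3 libraries alone 0, while leaving out 1 library gave 0 to 44. Of the members 1 passed; DESeq2 gave 2 (S1pr5 and Klf2), the replicate block, the naming-scheme term, the threshold of 0.01 and both added subsets gave 0, and leaving out 1 library gave 0 to 2. Of the other pathway genes 0 passed; DESeq2 gave 4 (among them Eomes, P2rx7 and Cx3cr1), no filter gave 2 (Eomes and P2rx7), and leaving out 1 library gave 0 to 1 (Eomes, without CD4-negative replicate 3). S1pr5 kept its direction throughout and missed the threshold with the replicate block (log2 -2.08, adjusted p = 0.183), the naming-scheme term (-2.08, 0.0582), the threshold of 0.01 (-2.09), the replicate 1 and 2 libraries alone (-1.83, 0.153) and the replicate 2 and 3 libraries alone (-2.16, 0.497); leaving out 1 library gave -2.22 to -1.93. Klf2 passed by DESeq2 (-1.10) and spanned -1.27 to -0.99 with 1 library left out. Fewer libraries are part of the construction of the subset fits; otherwise the cause was not tested.

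The fit with a replicate block had 531 genes at an unadjusted p under 0.05 by edgeR, and no gene passed. The numbers were not treated as pairs: deviations of same-numbered libraries correlated at -0.08, 0.34 and 0.036, not all above 0.1, and not every library correlated best with its own number. These correlations cannot exclude a shared preparation of same-numbered libraries. Library names also match between the sorts for each replicate number. The sample titles do not say whether this marks a shared preparation. The replicate 1 libraries of both sorts were high in immediate early genes, and the replicate 3 libraries share a naming scheme. With the block the SE of Cd69 was 0.17, against 0.44 without it. The S1pr5 call therefore holds only where the numbers are not taken as pairs. With 1 library left out Cd69 spanned -0.88 to 0.12 and Gpr183 -0.18 to 0.087. In the replicate 2 and 3 libraries alone Gpr183 was at 0.18, Klf3 at 0.035, Klf4 at 0.92, Klf6 at 0.19 and Fos at 0.10; in the replicate 1 and 2 libraries alone Sgpl1 was at -0.076, Klf8 at -0.21, Klf10 at -0.13 and Klf13 at 0.33. Klf4 was at 0.34 by limma-voom and at 0.31 with the replicate block. Leaving out 1 library gave -2.38 to 2.57 for Klf4, -0.60 to 0.35 for Klf6, -0.21 to 0.51 for Klf10, -1.30 to 0.75 for Klf11, -0.35 to 0.19 for Klf13, -0.29 to 0.14 for Klf16 and -3.09 to 1.71 for Fos. The 5 ratios kept their direction with each library left out. Scaling moved the median of all genes by no more than 0.1 (log2), and all 7 members stayed below 0 under RLE and upper-quartile scaling. For genes with no count, depth limits what could be seen to about 3 counts per library.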
